A study of Rattus norvegicus with 12 samples.

Results

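Sacubitril/valsartan, an angiotensin receptor-neprilysin inhibitor (ARNI), was compared with saline in the left atrium of spontaneously hypertensive rats (SHR), by RNA sequencing of polyadenylated transcripts. The comparison used 6 of the 12 libraries of the series, those named ARNI 1 to 3 and SHR 1 to 3. All were made from pieces of left atrium of male rats, 3 rats per group by the study's methods, that were 14 weeks old at purchase. The ARNI rats received sacubitril/valsartan at 60 mg/kg/day and the SHR rats received saline at 7.5 mL/kg/day, both for 4 weeks, and the other 6 libraries came from valsartan-treated and Wistar-Kyoto (WKY) rats. The SHR is an inbred strain that becomes hypertensive without surgery or drugs, and the labels name no transgene. No WKY-named library entered the comparison, and blood pressures of the rats are not given in the sources used here. The sample titles contradict the library names: titles of the SHR-named libraries call the rats Wistar-Kyoto, titles of the WKY-named libraries call them hypertensive, and the strain field gives Wistar-Kyoto for all 12 libraries. Libraries were grouped by name. Transcripts that separated the WKY-named libraries from the rest (chosen after their values were seen) placed ARNI 1 to 3 and SHR 1 to 3 on one side. That placement follows from the choice, and it does not tell which strain either side is. Ndufa10l1 was at 48.6 to 132 CPM (read counts scaled by library size) in these 6 libraries and at 0 in the 3 WKY-named libraries, and Mettl24 was at 0 in these 6 and at 3.22 to 3.74 CPM in the WKY-named ones.

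The drug combines valsartan, which blocks the angiotensin II type 1 receptor, with a prodrug whose active form inhibits neprilysin, the membrane peptidase that degrades natriuretic peptides and other short peptides. Atrial cardiomyocytes store and release atrial natriuretic peptide. The peptide acts through a guanylyl cyclase receptor that makes cyclic GMP, and cyclic GMP activates protein kinase G, while a second receptor without cyclase activity clears the peptide from the circulation. The question put to this comparison was which left atrial transcripts, and which pathways among them, differed under the drug.

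The libraries differed in composition within both groups, and most fold changes and list medians are therefore given with all 6 libraries and again without the second replicate of each group. Depth was 12721085 to 15823525 assigned reads in the ARNI libraries and 12683159 to 14953507 in the SHR libraries, so 3 reads stood for 0.183 to 0.26 CPM. Levels below are CPM after scaling by trimmed mean of M-values (TMM). They compare libraries for one gene and not one gene with another. Myl7, the atrial regulatory myosin light chain, was at 8502, 10.7 and 7221 CPM in ARNI 1, 2 and 3 and at 10222, 4529 and 8237 CPM in SHR 1, 2 and 3. Its ventricular counterpart Myl2 was at 3.92, 4592 and 23.1 CPM in ARNI and at 0.707, 2324 and 0.122 CPM in SHR. ARNI 2 thus carried ventricular and almost no atrial myosin light chain transcripts, against its label, and SHR 2 carried both. Over the whole lists, the 18 atrial cardiomyocyte markers summed to 86544, 3465 and 47428 CPM in ARNI and to 94289, 38284 and 68062 CPM in SHR, none at 0 in any of these libraries. The 15 ventricular markers summed to 4689, 31110 and 4809 CPM in ARNI and to 4593, 17680 and 3122 CPM in SHR, with 0 to 2 of them at 0. ARNI 3 stood apart in another way: Ucp1, the thermogenic protein of brown fat, was at 174 CPM there and at 0 in the other 5 libraries, and Slc18a3, the vesicular acetylcholine transporter of cholinergic neurons, was at 19.9 CPM there and at 0 in the other 5. SHR 3 held the highest levels of stimulus-induced early genes, with Fos at 572 CPM against 21.4 to 169 CPM in the other 5. Leaving out the second replicates leaves ARNI 3 and SHR 3 in place, and the ventricular light chain Myl3 still differs, at 20.2 and 137 CPM in ARNI 1 and 3 and at 11.3 and 9.09 CPM in SHR 1 and 3. In bulk tissue, fewer cells of a type and less RNA per cell cannot be told apart.

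**Figure D1:**
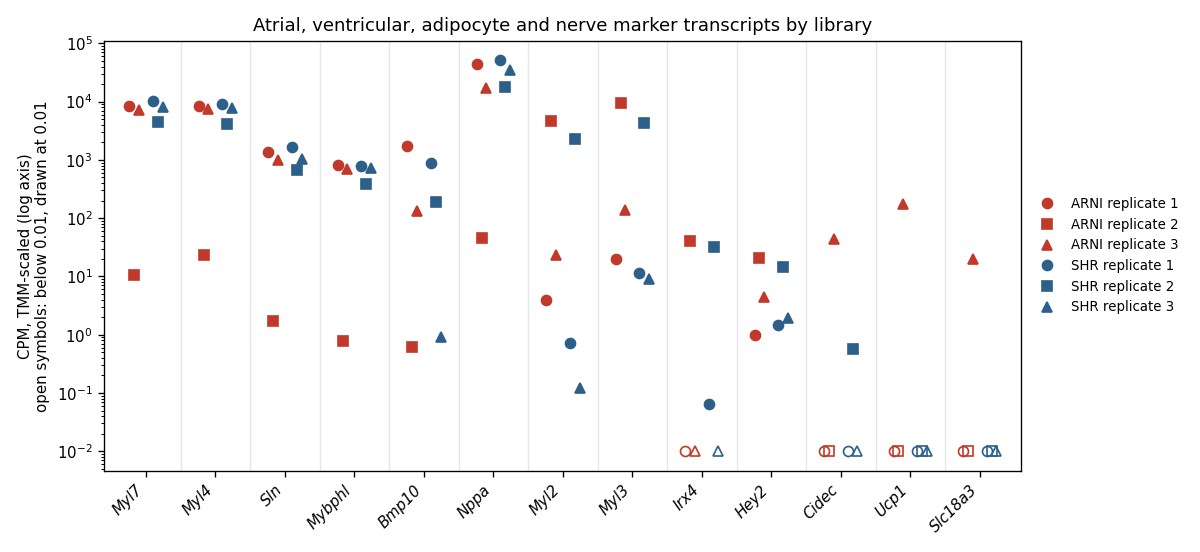
Levels of atrial (Myl7 to Nppa), ventricular (Myl2 to Hey2), adipocyte (Cidec, Ucp1) and cholinergic nerve (Slc18a3) marker transcripts in each library, as TMM-scaled CPM on a log axis, with symbols for replicates and colours for groups. ARNI replicate 2 had Myl7 at 10.7 CPM and Myl2 at 4592 CPM, SHR replicate 2 had Myl7 at 4529 CPM and Myl2 at 2324 CPM, and ARNI replicate 3 had Ucp1 at 174 CPM where the other 5 libraries were at 0.

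Promoter sequences are shown for genes taken up below, so that the letters stand beside the expression values. Irf7, Oas1a, Oasl2 and Tap1 belong to the interferon response and antigen presentation list and were lower in ARNI once the second replicates were left out. Acta1, skeletal alpha-actin and a fetal sarcomere gene, was higher in that comparison. The sequences are the 250 bases before the transcription start in RefSeq on build GRCr8, which is not the build the reads were aligned to. Capitals mark GAAANNGAAA on either strand, a core shared by interferon-stimulated response elements, and in Acta1 the CArG box, the binding sequence of serum response factor. Overlapping matches are merged.
Irf7, chr1:205800024-205800273, minus strand: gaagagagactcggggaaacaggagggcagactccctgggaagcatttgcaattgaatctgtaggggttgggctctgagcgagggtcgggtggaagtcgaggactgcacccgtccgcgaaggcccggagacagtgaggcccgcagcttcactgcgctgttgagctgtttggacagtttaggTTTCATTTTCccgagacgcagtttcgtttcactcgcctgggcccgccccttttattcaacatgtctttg
Oas1a, chr12:41330216-41330465, plus strand: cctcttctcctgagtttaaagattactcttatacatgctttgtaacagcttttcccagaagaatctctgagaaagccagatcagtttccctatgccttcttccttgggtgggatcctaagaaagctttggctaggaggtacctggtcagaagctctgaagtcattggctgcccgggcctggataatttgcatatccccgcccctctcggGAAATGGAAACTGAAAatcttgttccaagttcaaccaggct
Oasl2, chr12:47383186-47383435, minus strand: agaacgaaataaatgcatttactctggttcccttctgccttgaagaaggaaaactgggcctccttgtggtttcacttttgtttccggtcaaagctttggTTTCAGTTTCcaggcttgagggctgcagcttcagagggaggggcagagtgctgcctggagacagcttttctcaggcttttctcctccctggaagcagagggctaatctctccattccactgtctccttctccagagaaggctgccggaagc
Tap1, chr20:4668544-4668793, minus strand: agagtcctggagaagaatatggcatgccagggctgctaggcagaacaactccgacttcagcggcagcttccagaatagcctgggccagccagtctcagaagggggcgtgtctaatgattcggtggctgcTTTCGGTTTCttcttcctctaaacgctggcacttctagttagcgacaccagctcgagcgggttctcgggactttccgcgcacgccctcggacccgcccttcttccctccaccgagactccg
Acta1, chr19:68784195-68784444, minus strand: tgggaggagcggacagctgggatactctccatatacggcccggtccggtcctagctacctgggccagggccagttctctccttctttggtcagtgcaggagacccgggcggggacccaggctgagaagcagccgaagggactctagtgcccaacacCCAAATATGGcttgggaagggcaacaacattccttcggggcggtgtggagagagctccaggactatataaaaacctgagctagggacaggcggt
Of the 39 interferon list genes, 29 matched a promoter, and 14 of these 29 held the interferon pattern, against 3.41% of all 33469 promoters in the table. Among the 13 list genes lower at an unadjusted p under 0.05 without the second replicates, 8 matched and 4 held the pattern, and these 4 are the ones printed. The CArG box stood in 1.5% of all promoters and in 2 of 18 matched genes of the haemodynamic load list. A match describes the letters and shows no binding.

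No gene was differentially expressed by the study's criteria, a fold change of 1 or more on the log2 scale together with an adjusted p of 0.05 or less, in edgeR's quasi-likelihood test. The adjustment was that of Benjamini and Hochberg. With all 6 libraries, 0 of 13955 genes (0%) were upregulated and 0 (0%) downregulated, and the smallest adjusted p was 0.9993. At an unadjusted p under 0.05, 114 genes (0.817%) were higher and 113 (0.81%) lower in ARNI. Without both second replicates, 0 of 14136 genes (0%) were called in either direction, the smallest adjusted p was 0.9999, and 205 genes (1.45%) were higher and 154 (1.09%) lower at an unadjusted p under 0.05. DESeq2 called 4 upregulated (0.025%) and 3 downregulated genes (0.0187%) of 16001 with all 6 libraries, and 24 (0.166%) and 6 (0.0414%) of 14499 without the second replicates. Of these calls, 3 were made both times in the same direction, for Dnajb5, B3galt2 and Ccnj. The lists of genes described below held 0 of the DESeq2 calls with 6 libraries and 12 of them without the second replicates. Fold changes below are edgeR's, with their standard errors (SE), and none passed adjustment in edgeR's test, since every adjusted p was at least 0.9993 with 6 libraries and at least 0.9999 with 4. The log2 CPM values of ARNI 1 correlated with SHR 1 at 0.976, above every value within a group (0.892 to 0.942 among ARNI and 0.937 to 0.959 among SHR libraries), as a description over genes that share libraries and depth.

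Another way to read 3 libraries against 3 is to ask which genes had every ARNI library above, or every one below, every SHR library. With all 6 libraries this held for 391 genes higher (2.8%) and 453 lower (3.25%) of 13955. Without the second replicates it held for 2158 higher (15.3%) and 1911 lower (13.5%) of 14136. Each of these shares lies below the one that group labels given at random would produce. Separation alone therefore does not mark a gene as changed. At an unadjusted p under 0.05 in both fits, 58 genes were higher and 49 lower in ARNI. Genes ranked highest in the 6-library fit, and some named by p within a list, are described next.

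Dnajb5, which encodes a cardiac J-domain co-chaperone of HSP70, was at 156, 202 and 212 CPM in ARNI 1 to 3 and at 86.3, 88.6 and 95.1 CPM in SHR 1 to 3. The groups did not overlap, and the mixed library SHR 2 lay between the other SHR libraries. The log2 fold change was 1.08 (SE 0.16) with 6 libraries and 1.01 (SE 0.21) with 4. B3galt2, a beta-1,3-galactosyltransferase that extends glycan chains, was at 27.6, 21.3 and 35.2 CPM in ARNI and at 10.1, 10.8 and 12.9 CPM in SHR. Its log2 fold change was 1.30 (SE 0.22) with 6 libraries and 1.43 (SE 0.22) with 4. In both genes the lowest ARNI library was above the highest SHR library by more than the range of the SHR libraries.

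Rcan1, the feedback inhibitor of calcineurin, was at 486, 443 and 625 CPM in ARNI and at 185, 205 and 338 CPM in SHR. Its log2 fold change was 1.08 (SE 0.29) with 6 libraries and 1.07 (SE 0.35) with 4. Tinagl1, a secreted matrix protein, was at 82.1, 100 and 94.5 CPM in ARNI and at 54.8, 59.2 and 47.3 CPM in SHR, a log2 fold change of 0.78 (SE 0.14) and of 0.78 (SE 0.16) with 4 libraries. Slmap, a sarcolemmal and striated muscle membrane protein, was at 365, 319 and 362 CPM in ARNI and at 238, 244 and 228 CPM in SHR. It was among the tightest separations, with a log2 fold change of 0.56 (SE 0.13) that became 0.63 (SE 0.15) without the second replicates. Filip1, a filamin-binding protein, was at 90.4, 99.2 and 113 CPM against 65.3, 71.7 and 65.1 CPM, a log2 fold change of 0.58 (SE 0.13) and of 0.64 (SE 0.17) with 4 libraries. The kinases Nuak1 and Pkdcc, the former related to AMPK and the latter secreted, had log2 fold changes of 0.52 (SE 0.12) and 0.49 (SE 0.12), which were 0.39 (SE 0.13) and 0.44 (SE 0.16) with 4 libraries, and neither overlapped between groups. Kcnk3, the acid-sensitive background potassium channel of atrial myocytes, was at 116, 103 and 117 CPM in ARNI and at 91.3, 91.7 and 84.1 CPM in SHR, a log2 fold change of 0.33 (SE 0.11) and of 0.40 (SE 0.14) with 4 libraries. Both second replicates lay with their own groups for these genes, although their chamber markers did not. Most of these genes were chosen by p in the 6-library fit, which favours this placement, so it is no separate result.

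A pair of further genes whose groups did not overlap were picked after their values were seen. Txnip, an inhibitor of thioredoxin that responds to glucose, was at 768, 1174 and 966 CPM in ARNI and at 425, 719 and 439 CPM in SHR. Tnfrsf12a, the receptor of the cytokine TWEAK, was at 25.9, 25.6 and 58.3 CPM in ARNI and at 11.4, 9.41 and 17.7 CPM in SHR, with a log2 fold change of 1.5 (SE 0.42) that was 1.52 (SE 0.46) without the second replicates. In Txnip the second replicate was the highest library of each group, while in Tnfrsf12a it was the lowest.

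Genes lower in every ARNI library included transcription factors, growth factors and a regulator of apoptosis. Foxo6, a forkhead transcription factor, was at 6.78, 6.25 and 6.80 CPM in ARNI and at 15.4, 11.2 and 12.2 CPM in SHR, and its log2 fold change of -0.97 (SE 0.18) became -1.03 (SE 0.22) with 4 libraries. Vegfd, a ligand of lymphatic and vascular endothelial growth factor receptors, was at 11.8, 8.77 and 14.6 CPM against 24.4, 19.5 and 32.3 CPM, a log2 fold change of -1.12 (SE 0.27) and of -1.11 (SE 0.22) with 4 libraries. Bmf, a pro-apoptotic BH3-only protein, was at 10.1, 12.2 and 9.06 CPM against 20.4, 14.7 and 20.8 CPM. Its log2 fold change was -0.84 (SE 0.21) with 6 libraries and -1.11 (SE 0.17) with 4. Ddn was at 43.6, 17 and 19.7 CPM in ARNI and at 99.8, 52.9 and 85.0 CPM in SHR, a log2 fold change of -1.57 (SE 0.42) and of -1.55 (SE 0.39) with 4 libraries, and the highest ARNI library lay just under the lowest SHR library. DESeq2 called it with 4 libraries (adjusted p = 0.047). Gins2, a subunit of the replicative helicase, was at 4.89, 3.70 and 3.93 CPM against 10.2, 10.4 and 7.35 CPM, a log2 fold change of -1.15 (SE 0.22) and of -1.0 (SE 0.29) with 4 libraries. Tprkb, a subunit of a tRNA-modifying complex, was at 6.59, 5.45 and 4.75 CPM against 11.2, 11.2 and 14.7 CPM, a log2 fold change of -1.15 (SE 0.22) and of -1.2 (SE 0.28) with 4 libraries. Igf1, insulin-like growth factor 1, was at 62.4, 88.1 and 93.0 CPM against 134, 96.6 and 125 CPM, a log2 fold change of -0.55 (SE 0.21) and of -0.75 (SE 0.23) with 4 libraries, with the nearest libraries, ARNI 3 and SHR 2, close together.

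**Figure D2:**
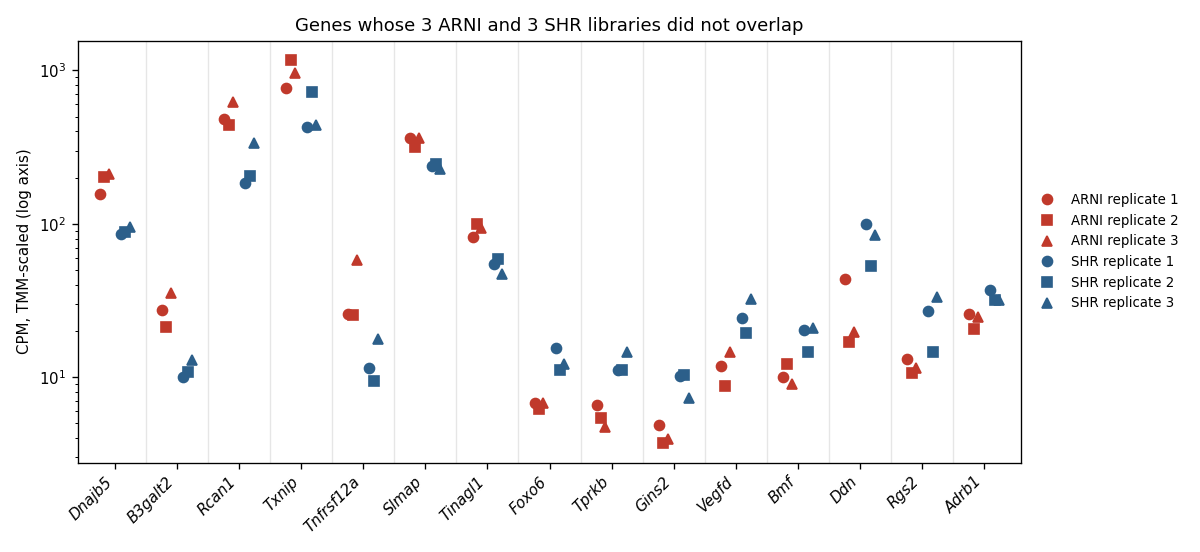
TMM-scaled CPM, on a log axis, of 15 genes whose ARNI and SHR libraries did not overlap, 7 higher and 8 lower in ARNI, with 1 symbol per library. Dnajb5 was at 156 to 212 CPM in ARNI and 86.3 to 95.1 CPM in SHR, and Foxo6 at 6.25 to 6.80 and 11.2 to 15.4 CPM.

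Some separations rested on transcripts listed at 0 in one group. Ccnj, cyclin J, was at 7.78, 4.98 and 1.78 CPM in ARNI and at 0 in all 3 SHR libraries, so its mean was at least 23.6-fold higher against the level of 3 reads per library. Ccnj was also at 0 in 1 valsartan library and at 8.13 and 4.36 CPM in the other two. LOC100911130 was at 1.25, 1.74 and 1.30 CPM in ARNI and at 0 in SHR (at least 6.98-fold higher), and Ms4a6e was at 0 in ARNI and at 0.852, 1.37 and 1.25 CPM in SHR (at least 5.42-fold lower). RSEM divides reads among near-identical transcripts, so a level of 0 for an uncharacterised or duplicated locus is uncertain.

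Transcripts of the drug's targets did not separate the groups. Mme, which encodes neprilysin, was at 0.187, 1.91 and 6.67 CPM in ARNI and at 0.193, 0.399 and 1.10 CPM in SHR, with a log2 fold change of 2.33 (SE 1.22) and of 2.38 (SE 1.62) with 4 libraries. Its highest level was in ARNI 3, the library with fat and nerve transcripts, and ARNI 1 and SHR 1 were at or near the level of 3 reads. The part of those tissues in the Mme value was not tested. Agtr1a, the angiotensin II type 1a receptor, was at 2.36, 3.30 and 8.16 CPM in ARNI and at 2.57, 4.23 and 5.24 CPM in SHR, a log2 fold change of 0.19 (SE 0.54) and of 0.42 (SE 0.70) with 4 libraries. Ace, the angiotensin-converting enzyme, was at 9.27, 15.9 and 22.9 CPM against 8.09, 15.9 and 19.9 CPM. Both groups had their lowest Ace level in replicate 1 and their highest in replicate 3. Agt, the angiotensin precursor, was at 3.11, 1.13 and 4.47 CPM against 3.47, 1.2 and 1.77 CPM. Of the 12 tested genes of the target and renin-angiotensin list, 7 were higher and 5 lower in ARNI, none at an unadjusted p under 0.05 in either fit, with a median log2 fold change of 0.16 against 0.00 over all genes. Without the second replicates 10 of 12 were higher and the median was 0.39.

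The natriuretic peptide transcripts were lowest in the second replicates, and no member of their list passed the test. Nppa, the atrial natriuretic peptide precursor, was at 44960, 45 and 17215 CPM in ARNI and at 51519, 18149 and 34579 CPM in SHR, and its log2 fold change of -0.76 (SE 1.66) was -0.48 (SE 0.53) without the second replicates. Nppb, the B-type peptide precursor, was at 1243, 42.5 and 991 CPM against 819, 192 and 1092 CPM, a log2 fold change of 0.10 (SE 1.13) that was 0.21 (SE 0.24) with 4 libraries. Corin, the protease that matures the atrial peptide, was at 819, 249 and 531 CPM against 784, 452 and 607 CPM. In all 3 genes the second replicate was the lowest library of each group, as it was for Myl7. Npr1, the cyclase receptor, was at 40.6, 38.3 and 44.2 CPM in ARNI and at 35.9, 37.1 and 48.2 CPM in SHR, a log2 fold change of 0.02 (SE 0.16). Its standard error was among the smallest of the pathway, and the approximate range of plus or minus 2 SE spanned -0.30 to 0.33 on the log2 scale. Npr2, the receptor of the C-type peptide, was at 51.8, 68.4 and 61.6 CPM against 44.0, 57.2 and 56.9 CPM, and the groups overlapped. It was higher in ARNI in each of the 3 replicate numbers, which the labels do not pair, as were 1919 of all 13955 genes tested. Npr3, the clearance receptor, was at 682, 59.7 and 306 CPM against 553, 167 and 527 CPM, a log2 fold change of -0.27 (SE 0.86) and of -0.14 (SE 0.40) with 4 libraries. Of the 9 tested members of this list, 5 were higher with 6 libraries and 3 with 4.

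**Figure D3:**
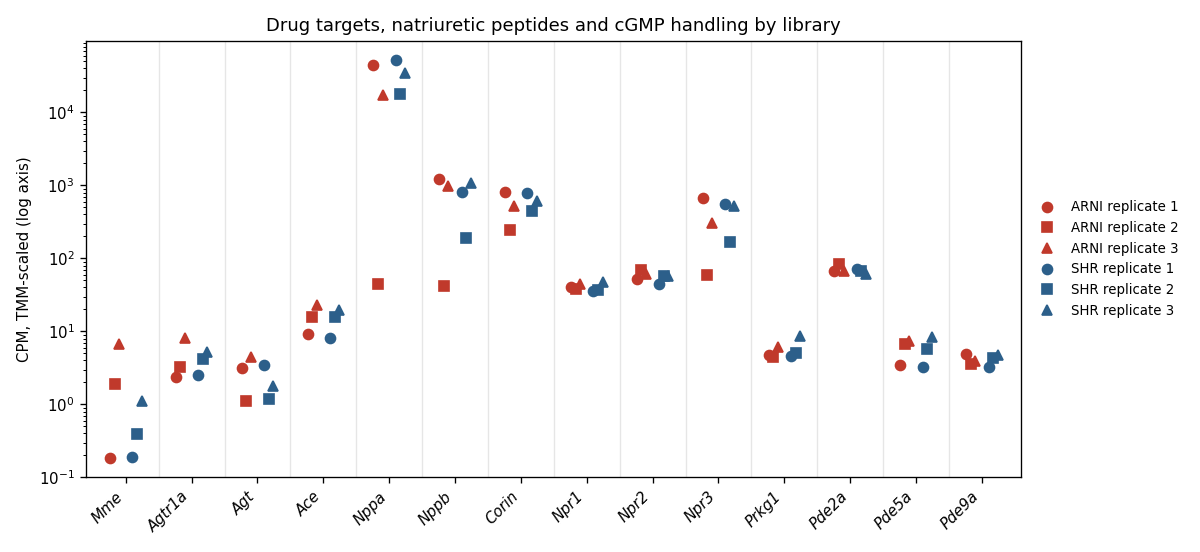
TMM-scaled CPM on a log axis of the drug targets, renin-angiotensin genes, natriuretic peptides, their receptors and cyclic GMP handling genes in the 3 ARNI and 3 SHR libraries. The groups overlap for all 14 genes, and Npr1 spans 38.3 to 44.2 CPM in ARNI and 35.9 to 48.2 CPM in SHR.

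Downstream of the receptors, the cyclic GMP and protein kinase G list had 107 tested members, of which 80 were higher and 27 lower in ARNI with a median log2 fold change of 0.11. Without the second replicates 73 of 108 were higher and the median was 0.12. None passed adjustment in edgeR's test. At an unadjusted p under 0.05, 0 were higher and 3 lower with 6 libraries, against 0.817% and 0.81% of all genes. With 4 libraries 1 was higher and 3 lower at that p, against 1.45% and 1.09% of all genes. Against 2.8% and 3.25% of all genes, 3 members lay above and 4 below SHR in every library. Prkg1, protein kinase G itself, was at 4.79, 4.51 and 6.21 CPM against 4.56, 5.10 and 8.53 CPM, and the phosphodiesterases that hydrolyse cyclic GMP overlapped too, with Pde5a at 3.42, 6.77 and 7.32 CPM against 3.28, 5.74 and 8.29 CPM and Pde2a at 68.0, 82.7 and 68.1 CPM against 72.8, 67.4 and 61.2 CPM. The same 3 members were lower at that p in both fits, Rgs2, Adrb1 and Plcb2. Rgs2, which shortens signalling through Gq and is activated by protein kinase G, was at 13.2, 10.6 and 11.4 CPM in ARNI and at 27.2, 14.5 and 33.4 CPM in SHR, a log2 fold change of -1.10 (SE 0.32) and of -1.31 (SE 0.19) without the second replicates, where DESeq2 called it (adjusted p = 0.00578). Adrb1, the beta-1 adrenergic receptor, was at 25.8, 20.6 and 24.8 CPM against 36.9, 32.1 and 32.1 CPM, a log2 fold change of -0.51 (SE 0.13) and of -0.46 (SE 0.15) with 4 libraries. Plcb2, a phospholipase C of blood cells, was at 0.809, 1.04 and 0.971 CPM against 2.25, 1.36 and 2.38 CPM, a log2 fold change of -1.09 (SE 0.35) and of -1.38 (SE 0.43) with 4 libraries. Nos1, neuronal nitric oxide synthase, was the member higher without the second replicates, at 2.99, 0.954 and 2.27 CPM against 1.16, 0.962 and 0.750 CPM, a log2 fold change of 1.12 (SE 0.48) with 6 libraries and of 1.46 (SE 0.47) with 4.

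Transcripts of mitochondrial fuel use were nearly all higher in ARNI by a small amount, and the direction turned when ARNI 2 was left out. With 6 libraries, 27 of 28 citrate cycle genes, 36 of 39 fatty acid oxidation genes, 31 of 33 propanoate metabolism genes and 75 of 75 respiratory chain and ATP synthase genes were higher, with median log2 fold changes of 0.34, 0.43, 0.28 and 0.24. None was at an unadjusted p under 0.05 in that fit. With the replicate number as a block, 4 citrate cycle and 6 fatty acid oxidation genes were higher at that p and none of the other 2 lists, against 3.07% of all genes, and none passed adjustment. Without both second replicates the counts were 27, 36, 31 and 67 of the same numbers and the medians 0.27, 0.29, 0.18 and 0.15. In that fit 1 gene, of the propanoate list, was higher at an unadjusted p under 0.05, against 1.45% of all genes. Without ARNI 2 alone all 4 medians were below 0, at -0.08, -0.18, -0.14 and -0.15, and without SHR 2 alone they were 0.67, 0.86, 0.62 and 0.53. Leaving out ARNI 3 in addition to both second replicates gave 0.09, -0.03, -0.03 and -0.01. Without SHR 3 alone the 4 medians were 0.16, 0.24, 0.14 and 0.03. With the chamber marker score as a covariate they were 0.00, -0.07, -0.05 and -0.08. Cs, citrate synthase, showed the pattern of these lists, at 374, 1003 and 432 CPM in ARNI and at 323, 637 and 307 CPM in SHR. The fatty acid dehydrogenase gene Acadl was at 430, 2033 and 780 CPM against 413, 1216 and 399 CPM. In both genes the second replicates were the highest library of their group and ARNI 3 came next within its group, while ARNI 1 lay close to SHR 1. Ventricular muscle is rich in mitochondria, and the part of chamber composition in these medians was not tested beyond the covariate.

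The list of PPAR targets and regulators, which covers fatty acid uptake, storage and ketone genes, had 39 of 44 members higher, a median log2 fold change of 0.40 and 1 member higher at an unadjusted p under 0.05. Without the second replicates 34 of 43 were higher, the median was 0.29 and 4 were higher at that p, against 0.817% and 1.45% of all genes in the 6-library and the 4-library fit. The median was -0.01 without ARNI 2 alone, with 21 higher and 23 lower, 0.74 without SHR 2 alone, 0.05 with the chamber score as a covariate, and 0.08 without ARNI 3 and both second replicates. With the replicate block 16 were higher and 1 lower at an unadjusted p under 0.05, against 3.07% and 2.16% of all genes, and none passed adjustment. Set against the SHR mean, the list was highest in the second replicates, which held the ventricular transcripts, with medians of 0.96 in ARNI 2 and 0.49 in SHR 2. Plin4, a lipid droplet coat protein, was at 263, 700 and 432 CPM in ARNI and at 167, 389 and 140 CPM in SHR, a log2 fold change of 1.01 (SE 0.52) and of 1.17 (SE 0.29) with 4 libraries, where DESeq2 called it (adjusted p = 0.0384). Angptl4, a secreted inhibitor of lipoprotein lipase, was at 1.31, 8.07 and 18.4 CPM against 0.707, 3.11 and 0.671 CPM, a log2 fold change of 2.65 (SE 1.06) and of 3.82 (SE 1.31) with 4 libraries. Both were higher in ARNI in each of the 3 replicate numbers, as were 1919 of all 13955 genes tested. The labels do not pair rats by these numbers. The 13 adipocyte markers summed to 273, 578 and 1362 CPM in ARNI and to 316, 471 and 257 CPM in SHR, with 0 to 5 of them at 0. Their sum was lower in ARNI 1 than in SHR 1, and it was highest in ARNI 3, while Plin4 was highest in ARNI 2. The part of these markers in the PPAR list was not tested.

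**Figure D4:**
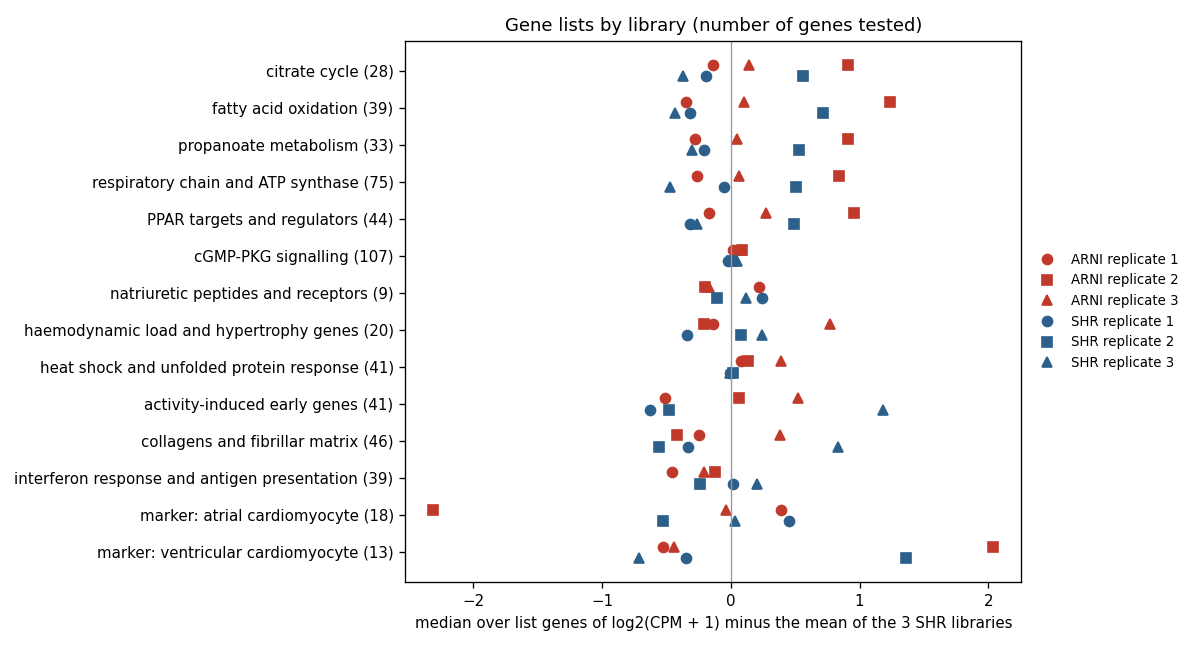
Median over the genes of each list of log2(CPM + 1) relative to the mean of the 3 SHR libraries, for each library, with the number of genes tested in brackets. In the fatty acid oxidation list ARNI replicate 2 was at 1.24 and SHR replicate 2 at 0.72 while ARNI replicate 1 was at -0.35, and the ventricular marker list ordered the second replicates above the other libraries in the same way.

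Some genes differed more clearly from their spread once the second replicates were left out, and DESeq2 called the next 3 in those 4 libraries. Tgfb2, a transforming growth factor beta ligand, was at 224, 30.6 and 199 CPM in ARNI and at 86.0, 53.7 and 85.2 CPM in SHR. Its second replicates were the lowest library of both groups. Its log2 fold change was 1.0 (SE 0.68) with 6 libraries and 1.30 (SE 0.15) with 4 (DESeq2 adjusted p = 1.83e-08). Enah, an actin filament elongation factor, was at 329, 178 and 405 CPM against 184, 171 and 157 CPM, a log2 fold change of 0.83 (SE 0.30) and of 1.10 (SE 0.19) with 4 (DESeq2 adjusted p = 0.000642). Lama5, a laminin chain of basement membranes, was at 85.8, 74.6 and 141 CPM against 44.4, 62.5 and 41.9 CPM and did not overlap with 6 libraries either, with a log2 fold change of 1.02 (SE 0.29) that was 1.39 (SE 0.27) with 4 (DESeq2 adjusted p = 0.00449).

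The haemodynamic load and hypertrophy list, made of transcripts that rise in stretched or pressure-loaded myocardium, had 14 of 20 members higher in ARNI with a median log2 fold change of 0.23, and 16 of 20 with a median of 0.66 without the second replicates. In the latter fit 5 members were higher and 1 lower at an unadjusted p under 0.05, against 1.45% and 1.09% of all genes, the lower one being Nrg1, neuregulin 1, at 6.81, 2.30 and 4.39 CPM against 8.41, 3.05 and 17.7 CPM. Acta1 was at 92.9, 554 and 274 CPM in ARNI and at 41.0, 250 and 18.8 CPM in SHR, with a log2 fold change of 1.59 (SE 1.08) and of 2.61 (SE 0.66) with 4 libraries (DESeq2 adjusted p = 0.00159). Xirp2, an actin-binding protein of the intercalated disc, was at 452, 363 and 764 CPM against 210, 368 and 247 CPM, a log2 fold change of 0.93 (SE 0.35) and of 1.41 (SE 0.31), the latter with a DESeq2 adjusted p of 0.00253. Myh7, beta myosin heavy chain, was at 615, 6519 and 728 CPM against 343, 3357 and 361 CPM. Within each replicate number, which the labels do not pair, it was higher in ARNI, as were 1919 of all 13955 genes tested. The groups overlapped, with a log2 fold change of 0.97 (SE 1.30) and of 0.92 (SE 0.18) with 4 libraries. Myh7 and Xirp2 also belong to the ventricular marker list, and Acta1 was highest in the second replicate of each group. With the chamber score as a covariate the log2 fold change was -0.15 for Myh7 and 0.95 for Xirp2, and the list median was 0.26. The part of ventricular content in this list was not tested beyond the covariate. Acta2, smooth muscle alpha-actin, was at 165, 57.0 and 335 CPM against 70.8, 74.0 and 46.9 CPM, a log2 fold change of 1.53 (SE 0.60) and of 2.08 (SE 0.42), the latter with a DESeq2 adjusted p of 0.000364. The smooth muscle and pericyte markers, of which Acta2 is one, summed to 3241, 4687 and 3702 CPM in ARNI and to 2878, 3759 and 2370 CPM in SHR, with none of the 13 at 0, and their part was not tested. ARNI 3 had the highest level of Xirp2 and Acta2, and without ARNI 3 and the second replicates the list median was 0.08, against 1.04 without ARNI 1 and the second replicates.

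Interferon-response genes were mostly lower in ARNI, by a wider margin without the second replicates, and none passed adjustment in edgeR's test. DESeq2 called Mx2 with 4 libraries. Of the 39 members of the interferon response and antigen presentation list, 9 were higher and 30 lower with 6 libraries, with a median log2 fold change of -0.28, 1 higher and 4 lower at an unadjusted p under 0.05, against 0.817% and 0.81% of all genes, and 1 above and 7 below SHR in every library, against 2.8% and 3.25% of all genes. With 4 libraries, 8 were higher and 31 lower, the median was -0.47, 0 were higher and 13 lower at an unadjusted p under 0.05, against 1.45% and 1.09% of all genes, and 1 lay above and 28 below SHR in every library, against 15.3% and 13.5% of all genes. The list median was below 0 in all 25 fits made, which share libraries, from -0.56 to -0.17.

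Mx2, an interferon-induced antiviral GTPase, was at 22.4, 33.2 and 42.2 CPM in ARNI and at 83.7, 38.9 and 92.0 CPM in SHR. Its log2 fold change was -1.14 (SE 0.39) with 6 libraries and -1.45 (SE 0.33) with 4 (DESeq2 adjusted p = 0.0197). SHR 2 lay within the ARNI range. Ifit1, which binds viral RNA caps, was at 12.1, 15.3 and 18.3 CPM against 32.4, 15.6 and 30.9 CPM, a log2 fold change of -0.79 (SE 0.32) and of -1.07 (SE 0.24). Irf7, the transcription factor that amplifies type I interferon, was at 22.7, 55.2 and 37.7 CPM against 67.1, 41.5 and 69.4 CPM, with a log2 fold change of -0.63 (SE 0.37) that was -1.19 (SE 0.27) with 4 libraries. Irf9, the DNA-binding subunit of the interferon-activated complex, was at 31.9, 28.6 and 36.1 CPM against 47.4, 40.2 and 43.1 CPM. It did not overlap with 6 libraries, and its log2 fold change was -0.44 (SE 0.13) and -0.42 (SE 0.15). Batf2, an interferon-induced leucine zipper factor outside the list, was at 0.311, 0.434 and 0.194 CPM against 0.964, 1.28 and 1.52 CPM, a log2 fold change of -2.0 (SE 0.45) and of -2.27 (SE 0.66) with 4 libraries. In Mx2, Ifit1 and Irf7 the second SHR library was far below the other SHR libraries, and in Irf9 and Batf2 it was not.

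Other genes of interferon and class I antigen handling that the rule named for the 4-library fit are given next. RT1-S3, a class I histocompatibility gene, was at 47.3, 51.7 and 47.7 CPM in ARNI and at 91.8, 41.0 and 96.1 CPM in SHR, a log2 fold change of -0.65 (SE 0.33) and of -0.99 (SE 0.13) with 4 libraries. Lgals3bp, a secreted galectin ligand, was at 69.1, 69.3 and 72.9 CPM against 128, 76.6 and 126 CPM, with log2 fold changes of -0.65 (SE 0.22) and -0.85 (SE 0.13), and Irgm2, an interferon-induced GTPase, at 39.6, 64.1 and 40.6 CPM against 64.1, 61.9 and 67.4 CPM, with -0.42 (SE 0.22) and -0.72 (SE 0.13). Irgm2 in ARNI 2 was at the SHR level, and its SHR 2 value lay near the other SHR libraries. Tap1, the peptide transporter whose promoter is printed above, was at 15.2, 17.7 and 14.1 CPM against 19.6, 17.2 and 28.5 CPM. Oas1a, a sensor of double-stranded RNA, was at 3.44, 5.05 and 5.03 CPM against 8.43, 5.45 and 8.37 CPM, and Oasl2 at 5.45, 6.84 and 7.56 CPM against 11.7, 4.84 and 11.5 CPM. These 3 and the genes in the next sentences were named after their values were seen.

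The class II genes of the same list went the other way. RT1-Da was at 18.1, 33.3 and 48.6 CPM in ARNI and at 22.0, 16.6 and 20.2 CPM in SHR, and RT1-Ba at 9.58, 13.4 and 22.8 CPM against 10.6, 9.81 and 8.84 CPM. ARNI 1 was within or below the SHR range in both, and neither had an unadjusted p under 0.05. Ciita, the transactivator of class II genes, was at 1.43, 2.43 and 3.69 CPM against 1.09, 1.28 and 1.10 CPM and was the list member higher in every ARNI library. The 12 macrophage markers summed to 101, 190 and 328 CPM in ARNI and to 183, 150 and 363 CPM in SHR, with 1 of them at 0 in SHR 2 and none at 0 in the other 5 libraries. The 13 lymphocyte markers summed to 20.9, 34.1 and 42.4 CPM against 36.0, 19.7 and 69.6 CPM, with 0 to 3 at 0. In both marker lists ARNI 1 was the lowest ARNI library and SHR 2 the lowest SHR library, and their part in the interferon list was not tested.

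**Figure D5:**
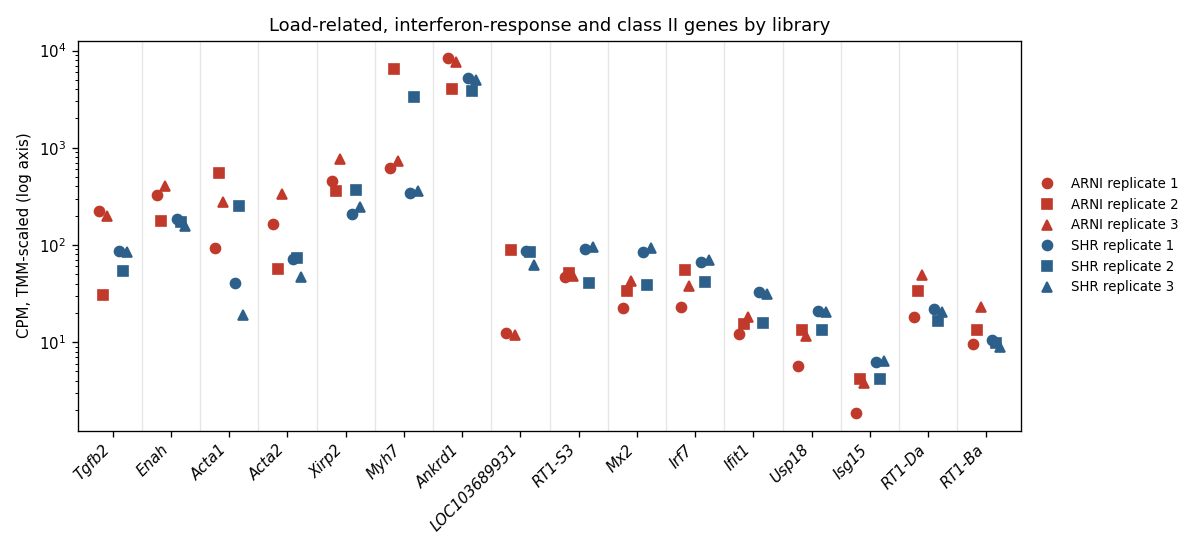
TMM-scaled CPM on a log axis of load-related and cytoskeletal genes (Tgfb2 to Ankrd1), a locus and a class I gene (LOC103689931, RT1-S3), interferon-response genes (Mx2 to Isg15) and class II genes (RT1-Da, RT1-Ba) in each library. Square symbols are the second replicates. For Mx2 the ARNI libraries lie at 22.4 to 42.2 CPM and SHR replicate 2 at 38.9 CPM, below SHR replicates 1 and 3 at 83.7 and 92.0 CPM.

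LOC103689931, an uncharacterised locus, ranked first in the 4-library fit. It was at 12.3, 87.8 and 11.8 CPM in ARNI and at 87.3, 83.8 and 62.3 CPM in SHR, a log2 fold change of -1.05 (SE 0.82) with 6 libraries and of -2.64 (SE 0.21) with 4 (DESeq2 adjusted p = 1.97e-16). ARNI 1 and ARNI 3 were low and ARNI 2 was at the SHR level, and the 6 valsartan and WKY libraries were at 60.5 to 105 CPM.

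No collagen or fibrillar matrix gene had an unadjusted p under 0.05 in edgeR's 6-library or 4-library fit. Of the 46 collagen and fibrillar matrix genes, 17 were higher and 29 lower with a median log2 fold change of -0.09. Without the second replicates 14 were higher and 32 lower and the median was -0.24. Col1a1 and Col3a1, the fibrillar collagens, were at 167, 256 and 756 CPM against 239, 216 and 723 CPM, and at 488, 542 and 1296 CPM against 552, 540 and 1909 CPM. Replicate 3 was the highest library of each group in both genes. Without SHR 3 the list median was 0.43. The fibroblast markers had that order as well, summing to 2021, 2879 and 4293 CPM in ARNI and to 2741, 1886 and 5931 CPM in SHR, none of 12 at 0. Of the 36 genes of the TGF-beta family and its SMAD mediators, 14 were higher and 22 lower with a median of -0.07. Without the second replicates 11 were higher and 25 lower and the median was -0.08. The Tgfb2 described above was the 1 member higher at an unadjusted p under 0.05, against 1.45% of all genes. Tgfb1 was at 24.4, 36.4 and 38.6 CPM against 27.7, 27.2 and 35.8 CPM.

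Chaperones made up a list that was mostly higher in ARNI. Of 41 heat shock and unfolded protein response genes, 37 were higher with a median log2 fold change of 0.27, 2 were higher and 0 lower at an unadjusted p under 0.05, against 0.817% and 0.81% of all genes, and 5 lay above SHR in every library against 2.8% of all genes. Without the second replicates 36 were higher, the median was 0.28 and 2 were higher at that p, against 1.45% of all genes. The list median was above 0 in all 25 of these fits, from 0.05 to 0.47, and was lowest without ARNI 3 and both second replicates. Hspa1l, a chaperone of the HSP70 family, was at 10.7, 10.8 and 18.6 CPM against 7.68, 9.70 and 7.41 CPM, a log2 fold change of 0.69 (SE 0.27) and of 0.94 (SE 0.32) with 4 libraries. Hsf1, the heat shock transcription factor, was at 48.5, 52.0 and 48.6 CPM against 40.7, 41.8 and 40.2 CPM, a log2 fold change of 0.28 (SE 0.10) and of 0.25 (SE 0.13) with 4 libraries. Hspa5, the chaperone of the endoplasmic reticulum, was at 809, 692 and 909 CPM against 644, 649 and 606 CPM.

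Early-response and clock genes varied within the groups as much as between them. Egr1, an early-response zinc finger factor, was at 173, 59.9 and 256 CPM in ARNI and at 111, 39.2 and 925 CPM in SHR. Of its 41 list genes, 1 was higher and 1 lower at an unadjusted p under 0.05, against 0.817% and 0.81% of all genes. The list median was -0.13 with 6 libraries, -0.41 without the second replicates, where 8 of 42 were higher, and 0.82 without SHR 3. Among clock genes, which follow the hour of tissue collection, Arntl was at 61.7, 13.6 and 16.4 CPM against 3.92, 8.85 and 25.4 CPM and Dbp at 16.9, 125 and 117 CPM against 249, 160 and 107 CPM. Arntl and Dbp, which peak at opposite times of day, were at opposite extremes in ARNI 1 and SHR 1, and collection times are not given in the sources used here. Cry1, a clock repressor, did not overlap, at 20.5, 11.3 and 10.4 CPM against 6.87, 10 and 6.40 CPM, a log2 fold change of 0.85 (SE 0.33) and of 1.2 (SE 0.37) with 4 libraries. Of 43 ion channel genes of atrial excitation, 1 was higher at an unadjusted p under 0.05, the Kcnk3 described above, and 0 were lower. The shares of all genes were 0.817% and 0.81%. Without the second replicates 4 of 44 were higher and 1 lower at that p, against 1.45% and 1.09% of all genes. Hcn4, the pacemaker channel, was at 89.9, 25.7 and 80.2 CPM against 53.1, 74.3 and 41.6 CPM, a log2 fold change of 0.21 (SE 0.47) that was 0.84 (SE 0.18) with 4 libraries.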

How the data were processed

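Left atrial RNA from 12 rats was sequenced as single-end reads of polyadenylated transcripts on a BGISEQ-500. The authors filtered reads with SOAPnuke, aligned them with HISAT2 (2.0.4) to rat build Rnor 6.0 and with Bowtie2 (2.2.5) to a reference gene set, and estimated levels with RSEM; the annotation is not given in the sources used here. The deposited values are expected counts, reads per gene that RSEM splits among similar transcripts, so 23.58% of them were not whole, and they were rounded. The deposited log2 fold changes and p-values of the authors' SHR and WKY comparison were not used. Of 37246 listed genes, 21239 had values, and 91.7% of their gene identifiers were found in the RefSeq GRCr8 table.

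Groups were taken from library names. ARNI was fitted against SHR with edgeR 4.0.16 (quasi-likelihood test, TMM scaling, filterByExpr) in R 4.3.3, on 6 libraries and on 4 without both second replicates. The study used DESeq2, which was run as an alternative (1.42.0). The steps were tested on simulated data. CPM values use TMM factors over 12 libraries and list medians by library use log2(CPM + 1). The chamber score is the mean log2 CPM of 4 atrial minus that of 4 ventricular markers. The 22 pathway and 13 marker lists, the genes and the tests were chosen with earlier results of these data known. Named genes were the 10 highest-ranked in each direction in each fit (by p, since none was called), up to 4 per list by p, and the drug target, natriuretic and chamber genes; others were chosen after their values were seen, as the text says or as follows: Fos, Ucp1, Cidec, Slc18a3, Ddn, Nrg1, Egr1, Arntl, Dbp, Col1a1, Col3a1, Tgfb1 and Isg15. The labels do not say that replicate numbers pair animals, but deviations from the group means correlated at 0.544, 0.48 and 0.216 between same-numbered libraries, so a replicate block was an alternative. The chamber score was lowest in the second replicate of each group, at -6.62 in ARNI 2 and 2.52 in SHR 2. The part of composition in these correlations and in the block was not tested. Replicates of a group were separate rats by the study's methods, and none were duplicates (chi-square per degree of freedom 45.2 to 245).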

Additional observations from a re-analysis of the deposited data

How the results depend on the processing

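With 6 libraries, edgeR called 0 genes in both directions under RLE scaling, without TMM, without the filter, with all 12 libraries in the fit, with the chamber score covariate and without any 1 library. With the replicate block it also called 0 genes, with a smallest adjusted p of 0.8443 and 731 genes at an unadjusted p under 0.05, and 0 without both second replicates, so the block changed no call. DESeq2 gave 4 higher and 3 lower. For the 4 libraries left without both second replicates, DESeq2 gave 24 higher and 6 lower, and a fit of 10 libraries gave 0 higher and 1 lower, LOC103689931. Alternatives for these 4 libraries that were added after the data were seen gave 0 in both directions without the filter and with the block. Leaving out each of the 4 gave 0 to 61 higher and 0 to 5 lower; the largest counts came without ARNI replicate 1, where ARNI 3 is the lone ARNI library and is assumed to vary like the SHR libraries. The cause was not tested.

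With 6 libraries no list had a member called by edgeR or DESeq2, nor did edgeR call one with 4. DESeq2 with 4 libraries, counted after the data were seen, called 12 list members: Acta1, Acta2, Adipoq, Cidec, Mx2, Myl2, Plin4, Rgs2, Slc18a3, Tgfb2, Ucp1 and Xirp2. Of the 4-library fits by edgeR that left out 1 more library, the fit without ARNI replicate 1 called 20, Angptl4 among them, and the others called 0. Of 49 genes with a fold change in the text, 43 kept their direction under all 15 alternatives. Npr1 was at -0.06 without TMM and at -0.000558 without both second replicates. Nppb was at -0.54 with the replicate block. Npr3 was at 0.17 and Myh7 at -0.15 with the chamber score covariate. Leaving out each library in turn moved Agtr1a from -0.51 to 0.52, Nppb from -0.45 to 0.67, Npr1 from -0.07 to 0.17, Npr3 from -1.19 to 0.24, Myh7 from -1.01 to 2.90 and Hcn4 from -0.08 to 0.59. Dnajb5 (1.10), B3galt2 (1.33) and Tprkb (-1.12) were called by DESeq2 with 6 libraries. With 4 it called 13 of the 49: Dnajb5, B3galt2, Ddn, Enah, Lama5, LOC103689931, Tgfb2, Rgs2, Plin4, Xirp2, Acta1, Acta2 and Mx2. Leaving out TMM moved the all-gene median of the log2 fold changes to -0.07. Levels under 0.183 to 0.26 CPM rest on fewer than 3 reads in a library.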

Other observations

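Cell proliferation genes were mostly lower in ARNI. Of 30 tested, 5 were higher and 25 lower with 6 libraries, with a median log2 fold change of -0.30, and without the second replicates 3 of 31 were higher and 28 lower, with a median of -0.50. The median was below 0 in all 25 fits, which share libraries, from -0.81 to -0.01. The value nearest 0 came without SHR 3, where 14 were higher and 16 lower. None had an unadjusted p under 0.05 in edgeR's test in either the 6-library or the 4-library fit. Mcm2, a subunit of the replicative helicase, was at 11.4, 7.98 and 10.5 CPM in ARNI 1 to 3 and at 13.0, 12.0 and 15.5 CPM in SHR 1 to 3, and the groups did not overlap. The highest level was in SHR 3.

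Endocardial markers split the libraries across both groups, summing to 2276, 504 and 762 CPM in ARNI and to 1757, 622 and 1891 CPM in SHR. The low libraries were ARNI 2, ARNI 3 and SHR 2. Nerve and Schwann cell markers summed to 445 CPM in ARNI 3 and to 37.2 to 121 CPM in the other 5 libraries. Stmn2, a neuronal microtubule regulator, was at 55.4 CPM in ARNI 3 and at 0.0868 to 2.07 CPM in the others. Epicardial and mesothelial markers summed to 85.5 CPM in ARNI 2 and to 348 to 642 CPM in the other 5, and Bmp10, a ligand made by atrial cardiomyocytes, was at 0.915 CPM in SHR 3 and at 188 to 1714 CPM in SHR 1, SHR 2 and ARNI 1. Wbp11l1 was at 9.88, 43.5 and 40.9 CPM in ARNI and at 52.2 CPM in SHR 2, and SHR 1 and SHR 3 were both under 0.01 CPM.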
